A study of Homo sapiens with 10 samples.

Results

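Kinesins are the motor proteins that walk along microtubules or take their ends apart, and the genes described here are those whose symbols begin with KIF or KIFC followed by a number. The rule took 43 of the 36687 gene symbols in the table, and 35 of them were among the 15727 genes that passed the filter on low counts and were tested. RNA was sequenced from MDA-MB-231 cells, an established wild-type human breast adenocarcinoma line of the triple-negative, basal B type, in 10 libraries. The 8 treated libraries came from cells kept in dasatinib, an inhibitor of SRC and ABL family kinases, for 6, 12, 24 or 48 h, at a dose that the study's figure legends give as 100 nM. The other 2 libraries were titled sham and are called 0 h here; their treatment field also names dasatinib, and they were taken as untreated cells. Each time had 2 libraries, labelled as biological replicates, and the p-values measure the spread between these libraries. This time course in a single line was part of a wider study of dasatinib in breast cancer. No untreated cells were sampled at the later times, so dasatinib and time in culture cannot be told apart.

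Kinesins share a motor domain that turns ATP hydrolysis into movement, and differ in what the rest of the protein binds. One set works mainly in dividing cells, where it separates the spindle poles, moves the chromosomes, trims microtubule ends and builds the central spindle on which cytokinesis depends. These genes are transcribed mainly in the G2 and M phases of the cell cycle. Another set moves mitochondria, endosomes, vesicles and RNA through cells that are not dividing, and a smaller set works in cilia, where Hedgehog signals are relayed.

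The libraries held from 40942913 to 49133774 counts each. Among the counts from 1 to 20, between 71.5% and 76.6% were even numbers, so a low count was not a tally of independent molecules. Intervals or limits from it cover counting error at most, and may be too narrow even for that. The first 12 h library stood apart, with a highest correlation of 0.9554 with any other library, against at least 0.9831 for the others. The line's mesenchymal markers VIM, CAV1, AXL, MSN and CD44 lay between 157 and 913 TPM at 0 h, a unit scaled by gene length and library,, PGR and KRT5 were listed at 0, and ESR1 and CDH1 lay at 0.0865 and 0.0663 TPM. ERBB2 and GATA3, which were on the list of genes thought to be low, lay at 21 and 11.7 TPM. Of the markers of other cell types, CD3E was listed at 0 in each library and PTPRC reached at most 0.145 TPM, CDH5 0.742, PDGFRA 0.231 and COL1A1 6.84. PECAM1 was higher at 48 h by 2.36 on the log2 scale, at 3.61 TPM or less, and its part in the results below was not tested.

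At 48 h every one of the 12 mitotic kinesins tested had fallen, whereas the 14 transport kinesins moved in both directions and most did not pass the test. The 12 mitotic genes were 8 spindle kinesins and 4 cytokinesis kinesins, and their log2 fold changes at 48 h against 0 h ran from -1.64 for KIF18B to -1.04 for KIF18A, with a median of -1.47. The role lists were chosen with earlier results of these data known. KIF2A, which also acts at spindle poles, was listed with the other kinesins, and its change did not pass the test. The transport kinesins ran from -0.79 for KIF21B to 0.94 for KIF13B, with a median of 0.16, beside a median of 0.01 over all genes tested. At 48 h, 14 of the 35 kinesin genes were lower and 3 were higher (edgeR quasi-likelihood test, Benjamini-Hochberg adjusted p under 0.05), while 16.3% of all genes tested were lower and 16% were higher. The share of all genes whose 48 h libraries both lay below both 0 h libraries was not counted. Of the kinesins, KIF1B, KIF1C, KIF5B, KIF21B, KIF2A, KIF7, KIF17 and KIF24 lay so, as did all 12 mitotic genes. These 12 calls held under each of the 17 alternative settings run. In bulk RNA, fewer cells in division and less of each transcript per cell cannot be told apart.

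**Figure D1:**
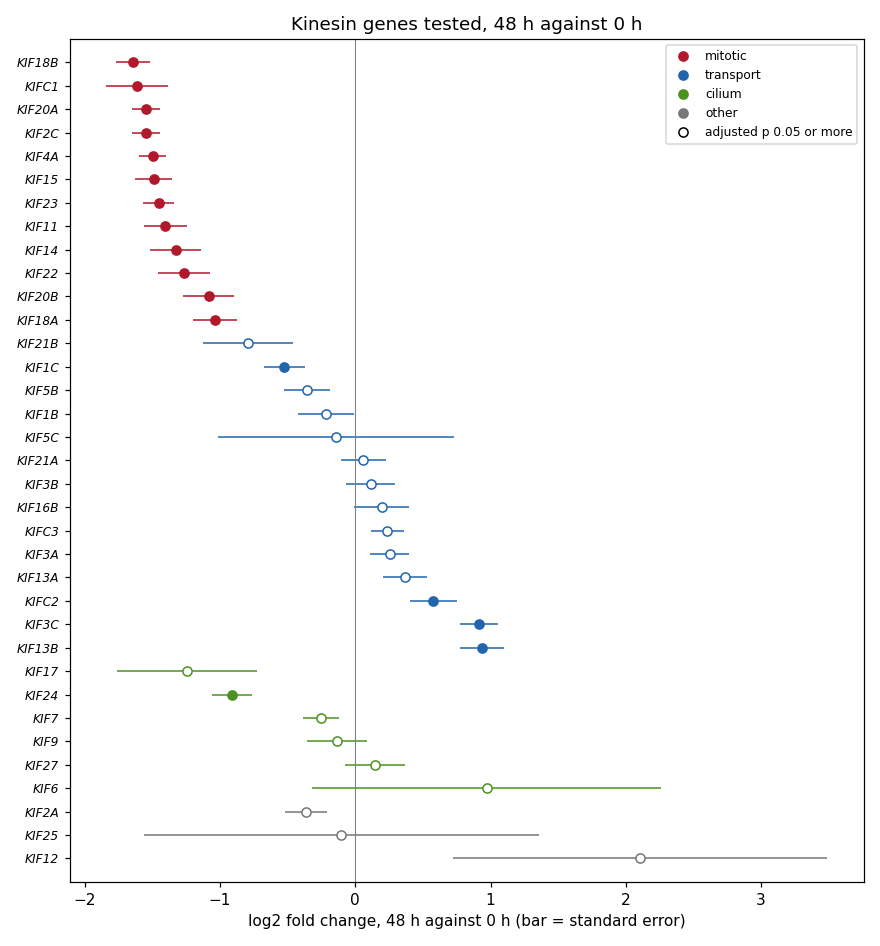
Log2 fold change at 48 h against 0 h (horizontal axis) of each of the 35 kinesin genes tested, with its standard error as a bar, coloured by role and filled where the adjusted p was under 0.05. The 12 mitotic genes sit between -1.64 and -1.04, and the 14 transport genes between -0.79 and 0.94.

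At 6 h no mitotic kinesin passed the test and 1 of the 35 kinesin genes, the transport gene KIFC3, was higher, beside 1.24% of all genes higher and 1.49% lower. At 12 h 3 were higher and none lower, beside 3.93% and 3.22% of all genes; the 3 were KIFC3, KIF3C and KIF13B. At 24 h 3 were higher and 7 lower, beside 9.73% and 10.2% of all genes, and 6 of the 7 lower genes were mitotic. The median change of the mitotic kinesins was -0.09, 0.14, -0.53 and -1.47 at 6, 12, 24 and 48 h. Medians over the same times for the transport kinesins were -0.05, 0.22, 0.24 and 0.16, and those over all genes stayed between 0.0007 and 0.02. All of these comparisons share the 0 h libraries. By edgeR with no adjustment, 6, 10, 18 and 21 kinesin genes had p under 0.05 at 6, 12, 24 and 48 h, and DESeq2 called 1, 3, 12 and 17.

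The counts before 48 h moved with the 12 h libraries, which share the estimate of the spread. Without the first or the second 12 h library more kinesin genes were called at each time, and so was a larger share of all genes. Mitotic kinesins were among those then called lower at 6 and 24 h. As all genes shared this rise, it is not a result about the kinesins. edgeR on the 6 h and 0 h libraries alone called 5 mitotic kinesins lower and 1 higher. That fit called 20.5% of all genes in either direction, against 2.73% in the main fit. Both 6 h libraries lay below both 0 h libraries in 9 of the 12 mitotic genes and above them in 3. Other kinesins separated as well, among them KIF5B, KIF3A and KIF3B below 0 h and KIF13B, KIF3C and KIFC3 above it. The share of all genes that separated in this way was not counted, so whether it is particular to the mitotic set cannot be said. The 6 h count was 0 without any 1 of the 0, 6, 24 or 48 h libraries. The 12 h count was 0 without either 0 h library and 1 without any 1 of the 24 or 48 h libraries. The 24 h count was 5 without the first 0 h library or the first 24 h library and 6 without the second 24 h library.

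**Figure D2:**
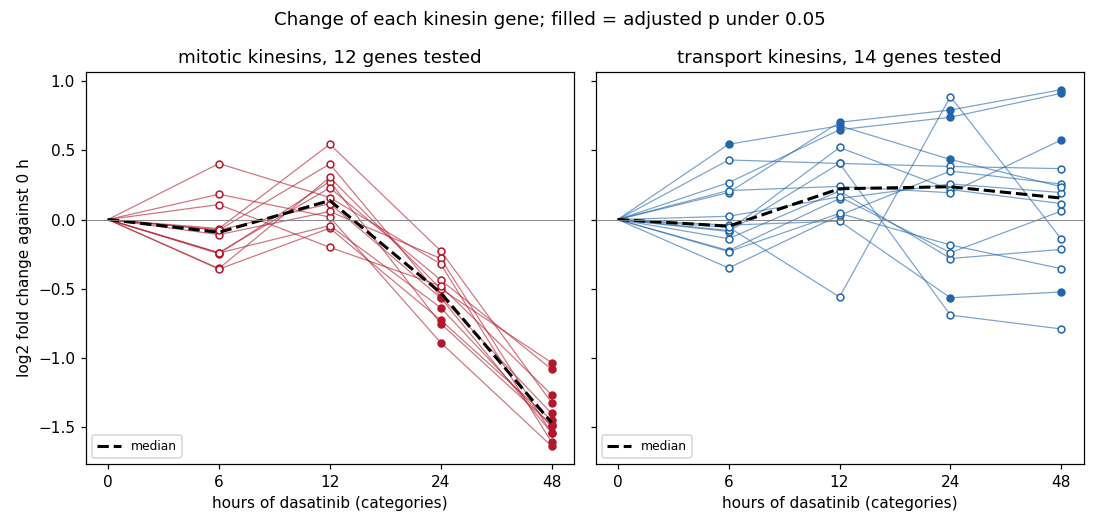
Log2 fold change against 0 h (vertical axis) at each time of treatment (horizontal axis, times drawn as categories) for each of the 12 mitotic and 14 transport kinesins tested, filled where the adjusted p was under 0.05, with the median as a dashed line. The mitotic median reaches -1.47 at 48 h and the transport median 0.16.

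The promoters of these genes are shown for the letters they share, since genes of the G2 and M phases are known to carry a CHR (cell cycle genes homology region) close to a CCAAT box. A script took the RefSeq promoter windows, 250 bases before to 50 bases after each annotated start in GRCh38.p14, which were given for 34 of the 43 genes and 30 of the 35 tested. It searched both strands for TTTGAA or TTCGAA as the CHR, CCAAT as the CCAAT box, and TTCCCGC or TTGGCGC as an E2F site. The last of these can overlap a reversed CCAAT box by up to 4 bases. The stretches below are the 150 bases before the start, 5′ to 3′ in the direction of the gene, with matches to the CHR and the CCAAT box on either strand in capitals. KIF11 and KIF4A were chosen as spindle genes, KIF23 and KIF20A as cytokinesis genes, and KIF5B and KIF3C as transport genes.
KIF11, chr10:92592980-92593129, plus strand: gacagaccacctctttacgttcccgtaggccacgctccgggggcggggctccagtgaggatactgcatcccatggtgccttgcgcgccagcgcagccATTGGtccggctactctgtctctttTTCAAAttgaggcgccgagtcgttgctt
KIF4A, chrX:70289954-70290103, plus strand: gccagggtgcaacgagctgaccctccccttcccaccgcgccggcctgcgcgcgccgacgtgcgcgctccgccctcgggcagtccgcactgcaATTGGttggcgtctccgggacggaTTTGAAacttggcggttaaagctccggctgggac
KIF23, chr15:69414199-69414348, plus strand: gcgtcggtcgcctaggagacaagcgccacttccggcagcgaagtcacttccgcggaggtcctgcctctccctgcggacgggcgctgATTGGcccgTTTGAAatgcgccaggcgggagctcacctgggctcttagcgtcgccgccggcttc
KIF20A, chr5:138178962-138179111, plus strand: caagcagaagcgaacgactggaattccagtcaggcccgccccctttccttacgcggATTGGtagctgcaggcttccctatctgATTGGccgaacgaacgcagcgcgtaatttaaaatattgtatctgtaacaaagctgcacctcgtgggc
KIF5B, chr10:32056426-32056575, minus strand: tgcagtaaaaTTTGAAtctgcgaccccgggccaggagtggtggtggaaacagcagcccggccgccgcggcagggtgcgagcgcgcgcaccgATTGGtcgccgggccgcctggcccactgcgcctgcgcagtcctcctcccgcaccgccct
KIF3C, chr2:25982498-25982647, minus strand: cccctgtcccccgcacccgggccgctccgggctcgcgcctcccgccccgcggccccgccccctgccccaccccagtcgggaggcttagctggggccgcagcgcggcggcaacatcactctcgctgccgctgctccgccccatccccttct
In KIF11, KIF4A and KIF23 the CCAAT box stood just ahead of the CHR, with 25, 24 and 9 bases between their first letters. KIF20A held a pair of CCAAT boxes and no CHR in these letters. KIF5B held both, at bases -59 and -140 from the start, with the CHR farther from the start than the CCAAT box, and KIF3C held neither. RefSeq and GENCODE v44 place some starts differently: the printed stretches of KIF11, KIF20A and KIF3C lie wholly within the gene as GENCODE draws it, that of KIF23 begins before it and ends within it, and those of KIF4A and KIF5B lie before it.

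A CHR and a CCAAT box stood in the same window in 9 of the 12 mitotic kinesins, in 1 of the 10 transport kinesins with a window and in 7.85% of the 27305 genes of the promoter table. The tested transport kinesins without a window were KIF13B, KIF21B, KIFC2 and KIFC3. Most transport genes called higher at some time were thus not searched. The CHR alone was found in 10 of the 12, 1 of the 10 and 19.5% of all genes. The CCAAT box was found in 10 of the 12, 4 of the 10 and 39.7% of all genes. The mitotic genes without a CHR were KIF20A and KIF2C, those without a CCAAT box were KIF15 and KIF2C, and the 9 with both had first letters 9 to 122 bases apart. E2F letters were less frequent, in 3 of the 12 mitotic genes, 2 of the 10 transport genes and 11% of all genes. On the gene strand alone the CHR was found in 6 of the 12 mitotic genes and 11.8% of all genes, and the CCAAT box in 3 of the 12 and 23.3%. Genes of the table had 1.29 windows on average, the mitotic kinesins 1.08 and the transport kinesins 1.3. KIF2C, which held neither motif in these letters, fell by 1.54 on the log2 scale at 48 h, and KIF5B, which held both, had a change of -0.36 that did not pass the test. Of the 5 cilium and Hedgehog kinesins with a window, 1 held both motifs, KIF24, which was lower at 48 h.

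**Figure D3:**
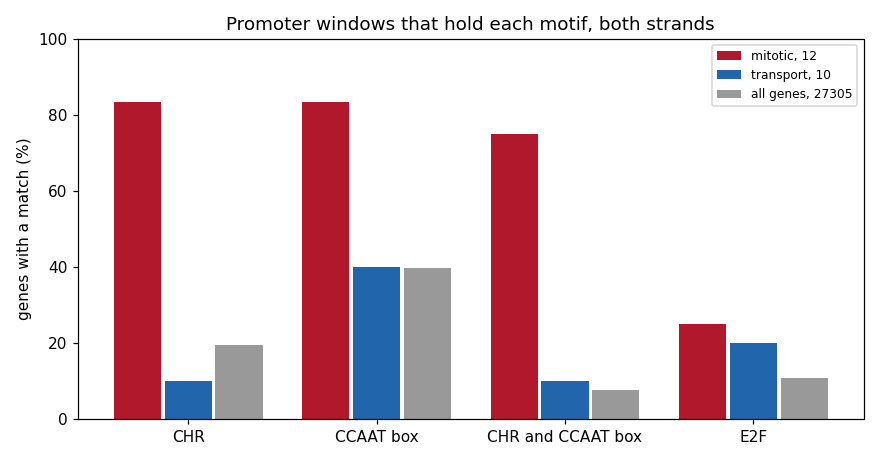
Share of genes (vertical axis, percent) whose promoter window held each motif on either strand, for the 12 mitotic kinesins, the 10 transport kinesins with a window and the 27305 genes of the promoter table. A CHR was found in 83.3% of the mitotic kinesins, 10% of the transport kinesins and 19.5% of all genes.

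The spindle kinesins all fell at 48 h, 8 of 8 tested, and 5 of them had already fallen at 24 h. KIF11 (chr10:92574105-92655395, plus strand, GRCh38) crosslinks antiparallel microtubules and pushes the spindle poles apart. Its levels in CPM, which are counts scaled to library size and TMM factor, were 238 and 230.5 at 0 h, then 226 and 219 after 6 h, 366 and 253 after 12 h, 160.4 and 158 after 24 h and 83.6 and 93.3 after 48 h. The first 12 h library was the highest of all, and the 24 h and 48 h libraries lay below every earlier one with no overlap between them. The log2 fold change of KIF11 was -0.56 ± 0.157 (SE) at 24 h (edgeR adjusted p = 0.0308) and -1.40 ± 0.159 at 48 h (adjusted p = 0.000129). Its 24 h call was lost without 1 library in 7 of the 10 cases, with adjusted p-values of up to 0.169.

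KIF2C (chr1:44739818-44767767, plus strand), which removes tubulin from microtubule ends at the centromere, had 149.5 and 161 CPM at 0 h, then 146 and 149 after 6 h, 162 and 175 after 12 h, 104 and 106 after 24 h and 52.9 and 53.5 after 48 h. The replicates lay close together at each time, and the 24 h and 48 h libraries lay below all others. KIF2C fell by 0.57 ± 0.0998 at 24 h (edgeR adjusted p = 0.00338) and by 1.54 ± 0.102 at 48 h (adjusted p = 8.08e-06), the smallest adjusted p among the kinesins. KIF4A (chrX:70290104-70420886, plus strand) is a chromosome-bound kinesin that sets the length of the central spindle. It had 113 and 115 CPM at 0 h, then 98.2 and 94.7 after 6 h, 110.4 and 111 after 12 h, 75.7 and 70.9 after 24 h and 40.2 and 40.7 after 48 h. Its 6 h libraries lay below the 0 h libraries, but that change of -0.24 did not pass the test. KIF4A fell by 0.64 ± 0.0983 at 24 h (edgeR adjusted p = 0.0017) and by 1.5 ± 0.1 at 48 h (adjusted p = 8.16e-06). Reads of KIF4A could be shared with its near-identical intronless copy KIF4B, which held at most 2 counts in any library.

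KIF18B (chr17:44924709-44947773, minus strand), which acts at the growing ends of astral microtubules, had the largest fall of the mitotic genes at 24 h. Its values were 126 and 133 CPM at 0 h, then 148 and 146 after 6 h, 117 and 145 after 12 h, 66.4 and 73.2 after 24 h and 40.7 and 42.4 after 48 h. The 6 h libraries were the highest, and the 24 h and 48 h libraries did not overlap with any earlier time. KIF18B fell by 0.89 ± 0.123 at 24 h (edgeR adjusted p = 0.000945) and by 1.64 ± 0.125 at 48 h (adjusted p = 1.47e-05). The other spindle genes fell at 48 h as well. KIF15, which can stand in for KIF11 in holding the spindle bipolar, changed by -0.75 at 24 h (edgeR adjusted p = 0.00352) and by -1.49 at 48 h (adjusted p = 3.91e-05), and its 24 h call was lost without the second 24 h library (adjusted p = 0.0509). KIFC1, a minus-end motor that draws spindle poles and extra centrosomes together, changed by -1.61 at 48 h, KIF22, which pushes chromosome arms toward the spindle equator, by -1.27, and KIF18A, which damps chromosome oscillation at the equator, by -1.04, with edgeR adjusted p-values of 0.000497, 0.000726 and 0.000823. None of these 3 passed the test at 24 h.

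**Figure D4:**
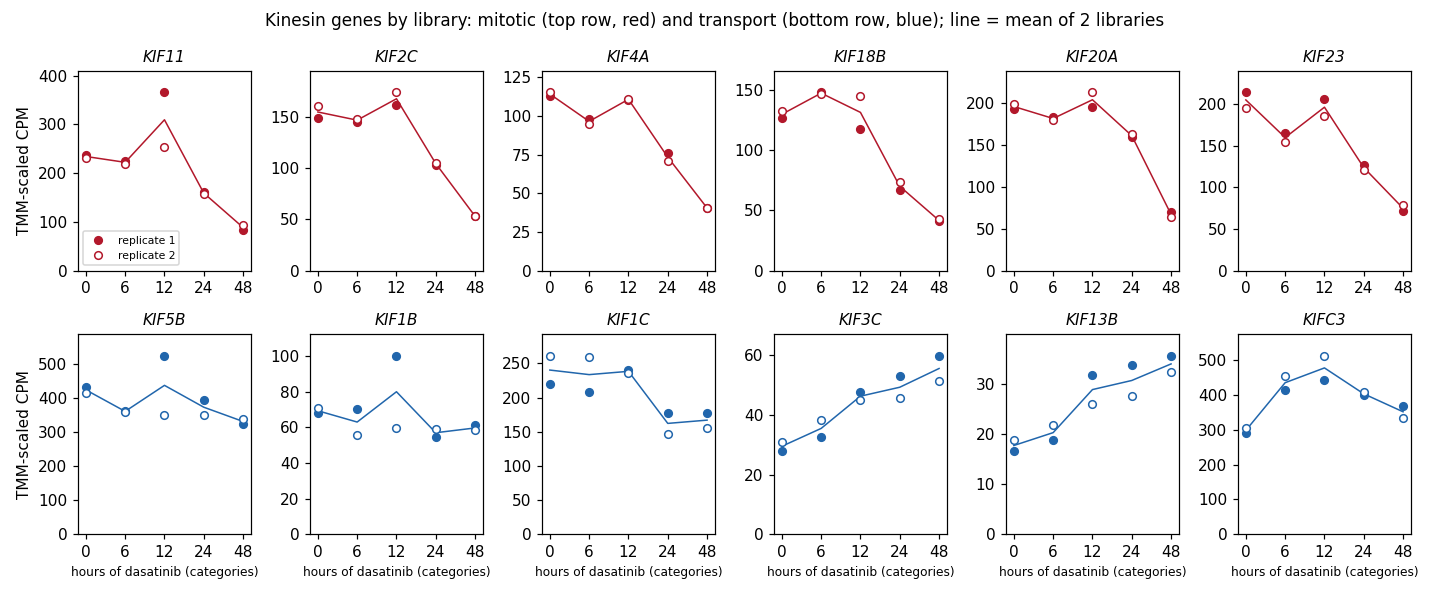
TMM-scaled CPM (vertical axis, from 0) by hours of dasatinib (horizontal axis, times drawn as categories) for 6 mitotic and 6 transport kinesins, with replicate 1 filled, replicate 2 open and a line through the mean of both. The 6 mitotic genes are lowest at 48 h, KIF3C and KIF13B rise, and the replicates of KIF11, KIF5B and KIF1B lie far apart at 12 h.

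The 4 cytokinesis kinesins also all fell at 48 h, but only KIF23 of them passed the test at 24 h. KIF20A (chr5:138178719-138187723, plus strand) carries the Aurora B complex from the chromosomes to the central spindle. It had 193 and 198 CPM at 0 h, then 183 and 179.8 after 6 h, 195 and 213 after 12 h, 159 and 163 after 24 h and 69.4 and 64.5 after 48 h. The libraries of the first 4 times lay between 159 and 213 CPM, and both 48 h libraries lay far below them. KIF20A changed by -0.28 ± 0.101 at 24 h (edgeR adjusted p = 0.079) and fell by 1.55 ± 0.104 at 48 h (adjusted p = 8.16e-06), a 2.92-fold difference. KIF23 (chr15:69414246-69448427, plus strand) is the motor of centralspindlin, which bundles the midzone microtubules. It had 214 and 196 CPM at 0 h, then 165 and 155 after 6 h, 206 and 186 after 12 h, 127 and 121 after 24 h and 71.4 and 78.4 after 48 h. Only the 0 h and 12 h libraries overlapped. KIF23 fell by 0.73 ± 0.111 at 24 h (edgeR adjusted p = 0.0016) and by 1.45 ± 0.113 at 48 h (adjusted p = 1.56e-05).

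KIF14 (chr1:200551497-200620751, minus strand), which brings citron kinase to the midbody, had 90.9 and 93.8 CPM at 0 h, then 88.3 and 88.2 after 6 h, 167 and 102 after 12 h, 80.8 and 77.1 after 24 h and 37.3 and 36.4 after 48 h. The replicates at 12 h differed from each other more than those at any other time. KIF14 changed by -0.23 ± 0.184 at 24 h (edgeR adjusted p = 0.448) and fell by 1.33 ± 0.188 at 48 h (adjusted p = 0.000482). KIF20B, a midbody kinesin that takes part in abscission, fell by 1.08 at 48 h (edgeR adjusted p = 0.0018).

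Direct tests between times followed the mitotic fall in steps. The median change of the 12 mitotic genes was -0.53 from 0 to 24 h and -0.82 from 24 to 48 h, and the difference between these intervals was not tested. Between 24 and 48 h 9 kinesin genes were lower and none higher, beside 1.28% and 1.89% of all genes, and all 9 were mitotic. The largest of these falls were -1.29 for KIFC1 and -1.26 for KIF20A. By edgeR 14 members had an unadjusted p under 0.05 in this comparison, and DESeq2 called 11. Between 6 and 24 h 9 were lower and 3 higher, beside 9.65% and 9% of all genes. The 9 were KIF18B, KIFC1, KIF15, KIF2C, KIF4A and KIF23 of the mitotic set, KIF1C and KIF21B of the transport set, and KIF24, and the 3 were KIF3A, KIF13B and KIF3C. Both counts rest on few libraries. They rose without the first or the second 12 h library, as did the share of all genes called. The count between 24 and 48 h was 2 or 3 without the first or second 24 h library, 1 or 2 without the first or second 48 h library, and 16 without either 12 h library. The count between 6 and 24 h was 4 or 1 without the first or second 6 h library, 2 without either 24 h library, 6 without any 1 of the 0 or 48 h libraries, and 19 without either 12 h library.

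Of the 14 transport kinesins, 3 (21.4%) were higher and 1 (7.14%) was lower at 48 h, beside 16% and 16.3% of all genes tested, so the share that rose was near that of all genes. KIF5B (chr10:32009015-32056425, minus strand) is the heavy chain of conventional kinesin, which moves mitochondria, lysosomes and many vesicles. It had 433 and 417 CPM at 0 h, then 363 and 361 after 6 h, 525 and 352 after 12 h, 396 and 352 after 24 h and 326 and 338 after 48 h. The 48 h libraries lay below the 0 h libraries and the first 12 h library was the highest of all. The change of KIF5B was -0.36 ± 0.168 at 48 h (edgeR adjusted p = 0.133), and it did not pass the test at any time. KIF1B (chr1:10210570-10381603, plus strand), which carries mitochondria and synaptic vesicle precursors, had 68 and 70.6 CPM at 0 h, then 70.3 and 55.6 after 6 h, 100.1 and 59.8 after 12 h, 54.6 and 59.3 after 24 h and 61 and 58.3 after 48 h. It too was highest in the first 12 h library. KIF1B changed by -0.22 ± 0.208 at 48 h (edgeR adjusted p = 0.468) and did not pass the test at any time.

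KIF3C and KIF13B rose from 12 h on. KIF3C (chr2:25926598-25982749, minus strand), a kinesin-2 motor that pairs with KIF3A, had 27.9 and 31.1 CPM at 0 h, then 32.7 and 38.3 after 6 h, 47.6 and 45 after 12 h, 53 and 45.6 after 24 h and 59.8 and 51.3 after 48 h. From 6 h on every library was above both 0 h libraries. Its change was 0.65 at 12 h (edgeR adjusted p = 0.0251), 0.74 ± 0.142 at 24 h (adjusted p = 0.00512) and 0.91 ± 0.143 at 48 h (adjusted p = 0.000856), a 1.88-fold rise. KIF13B, a kinesin-3 motor that carries vesicles and binds the DLG1 scaffold, had 16.7 and 18.8 CPM at 0 h, then 18.8 and 21.8 after 6 h, 31.7 and 26.1 after 12 h, 33.8 and 27.6 after 24 h and 35.6 and 32.4 after 48 h. Its libraries from 12 h on lay above those of 0 and 6 h. KIF13B rose by 0.70 at 12 h (edgeR adjusted p = 0.0302), 0.79 ± 0.162 at 24 h (adjusted p = 0.00711) and 0.94 ± 0.163 at 48 h (adjusted p = 0.00158). The 24 h calls of both were lost without the first 0 h or first 24 h library, with adjusted p-values of 0.0651 and 0.0633 for KIF3C and 0.0786 and 0.0813 for KIF13B. The 12 h calls of both were lost without either 0 h library, with adjusted p-values of 0.217 and 0.122 for KIF3C and 0.234 and 0.134 for KIF13B. They were also lost without any 1 of the 24 or 48 h libraries, at 0.0517 to 0.0531 for KIF3C and 0.0551 to 0.0674 for KIF13B, and for KIF13B without either 6 h library, at 0.0563 and 0.0581.

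KIFC3 (chr16:57758217-57863053, minus strand), a minus-end motor found at adherens junctions and in apical transport, was the only kinesin called at 6 h. It had 290.0 and 306 CPM at 0 h, then 415 and 455 after 6 h, 443 and 512 after 12 h, 399 and 407 after 24 h and 369 and 334 after 48 h. Every treated library was above both 0 h libraries, and those of 6 and 12 h were the highest. KIFC3 rose by 0.54 at 6 h (edgeR adjusted p = 0.0429), 0.68 at 12 h (adjusted p = 0.00984) and 0.43 ± 0.12 at 24 h (adjusted p = 0.0284), and its change of 0.24 ± 0.12 at 48 h did not pass the test (adjusted p = 0.159). The differences between 6 and 24 h and between 24 and 48 h, -0.11 and -0.20, also did not pass (adjusted p = 0.588 and 0.475). Its 6 h call was lost without any 1 of the 0, 6, 24 or 48 h libraries, with adjusted p-values of 0.0968 to 0.379, and its 12 h call without either 0 h library, at 0.145 and 0.0969. Its 24 h call was lost without any 1 of the 0, 6, 24 or 48 h libraries, at 0.0559 to 0.209.

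KIF1C (chr17:4997950-5028401, plus strand), a fast kinesin-3 motor of vesicles and integrin carriers, was the transport gene that fell. It had 219 and 261 CPM at 0 h, then 208 and 259 after 6 h, 241 and 236 after 12 h, 178 and 146 after 24 h and 178 and 156 after 48 h. The libraries of 24 and 48 h lay below all the earlier ones, although the 0 h replicates were far apart. KIF1C fell by 0.57 ± 0.152 at 24 h (edgeR adjusted p = 0.025) and by 0.52 ± 0.151 at 48 h (adjusted p = 0.0235). The 48 h call was lost without the second 0 h library or either 48 h library, with adjusted p-values of 0.181, 0.0634 and 0.173, and the 24 h call without any 1 library of 0 or 24 h, at 0.0547 to 0.232. KIFC2, a minus-end motor, was the third transport gene to rise at 48 h, by 0.58 (edgeR adjusted p = 0.029). That call was lost without the second 0 h library, either 6 h library or either 48 h library, with adjusted p-values of 0.0532 to 0.224. Without the first or the second 12 h library, more transport genes were called in both directions at 48 h, as was a larger share of all genes. Of the 10 transport genes that did not pass the test at 48 h, 7 are not described above, and they changed by -0.79 for KIF21B, -0.14 for KIF5C, 0.06 for KIF21A, 0.12 for KIF3B, 0.20 for KIF16B, 0.26 for KIF3A and 0.37 for KIF13A.

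Of the 6 cilium and Hedgehog kinesins tested, 1 (16.7%) fell at 48 h and none rose, beside 16.3% lower over all genes tested, and the median was -0.19. KIF24 (chr9:34252380-34329268, minus strand) restrains the start of cilium growth at the mother centriole. It had 19.2 and 19.5 CPM at 0 h, then 23.1 and 26.2 after 6 h, 25.5 and 23.9 after 12 h, 13.7 and 15 after 24 h and 11.3 and 9.34 after 48 h. The libraries of 6 and 12 h lay above those of 0 h, and those of 24 and 48 h below. KIF24 changed by -0.44 ± 0.147 at 24 h (edgeR adjusted p = 0.0631) and fell by 0.91 ± 0.148 at 48 h (adjusted p = 0.00111), and between 6 and 24 h it fell by 0.78 (adjusted p = 0.00487), a call lost without the second 6 h or the first 24 h library (adjusted p = 0.0628 and 0.0673).

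KIF7, which sits at the cilium tip and tunes the GLI factors of the Hedgehog pathway, had 27.6 and 32.3 CPM at 0 h, then 30.6 and 31.7 after 6 h, 27.4 and 28.9 after 12 h, 29.3 and 33.1 after 24 h and 25.2 and 25.1 after 48 h, a change of -0.25 ± 0.132 at 48 h that did not pass the test. KIF17, a homodimeric kinesin-2 of cilia and dendrites, was low throughout. It had 1.19 and 1.28 CPM at 0 h, then 1.11 and 1.16 after 6 h, 0.523 and 0.57 after 12 h, 0.477 and 0.682 after 24 h and 0.368 and 0.68 after 48 h. All libraries from 12 h on lay below the earlier ones, but the change of -1.24 ± 0.519 at 48 h did not pass the test (edgeR adjusted p = 0.0944). KIF27 and KIF9 changed by 0.15 and -0.13 at 48 h, and KIF6 held 0 to 20 counts.

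None of the 3 other kinesins tested passed the test at any time. KIF2A, a microtubule depolymerase of spindle poles and neurites, had 70 and 66.5 CPM at 0 h, then 56.6 and 61.2 after 6 h, 75.5 and 53.7 after 12 h, 51.2 and 47.4 after 24 h and 53.4 and 52.7 after 48 h. Its 24 and 48 h libraries lay below those of 0 h, with changes of -0.47 ± 0.153 (edgeR adjusted p = 0.0561) and -0.36 ± 0.153 (adjusted p = 0.097). KIF12 was near its detection limit, with raw counts of 9 and 2 at 0 h, then 4 and 2 after 6 h, 14 and 0 after 12 h, 4 and 8 after 24 h and 18 and 34 after 48 h, or at most 0.771 CPM. KIF25 was as low, with raw counts of 0 and 4 at 0 h, then 4 and 5 after 6 h, 10 and 10 after 12 h, 14 and 5 after 24 h and 2 and 2 after 48 h, or at most 0.278 CPM. The 8 genes that did not pass the filter were KIF19 and KIF2B at 0 in each library, KIF4B and the pseudogene KIF3AP1 at 0 to 2 counts, KIF1A and KIF5A at 0 to 8, KIF26A at 0 to 12 and KIF26B at 0 to 28. A count of 0 allows 0.0611 to 0.0733 CPM in these libraries, from 3 counts over each library's unscaled total. That limit takes counts as independent, which the even low counts speak against, so it may be too low.

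Summed levels, which can be set side by side because TPM is per length, changed order over the 48 h. The sums take in all genes listed, 14 mitotic and 16 transport. KIF2B, KIF4B, KIF1A and KIF5A, which were not tested, add at most 0.0998 TPM each. The mitotic kinesins added up to 1082 and 1095 TPM at 0 h, then 1056 and 1004 after 6 h, 1376 and 1209 after 12 h, 789.7 and 826.3 after 24 h and 402.7 and 443.4 after 48 h. The transport kinesins added up to 575.5 and 597.9 TPM at 0 h, then 590.3 and 591.0 after 6 h, 858.0 and 655.9 after 12 h, 633.4 and 623.4 after 24 h and 585.3 and 586.5 after 48 h. The mitotic sum was above the transport sum in each library up to 24 h and below it in both 48 h libraries. The ratio of the sums was 1.88 and 1.83 at 0 h and 0.688 and 0.756 at 48 h.

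**Figure D5:**
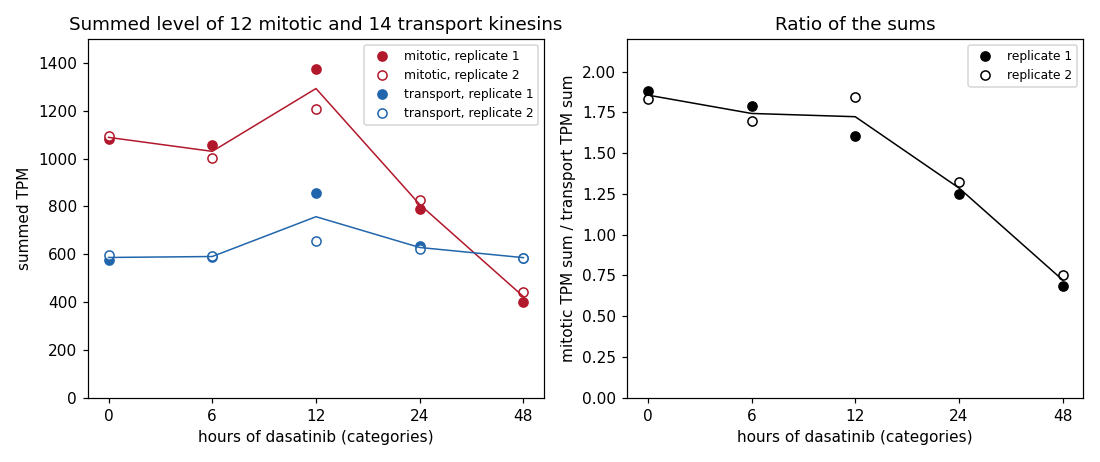
Left, summed TPM (vertical axis) of the 14 mitotic and 16 transport kinesins listed, in each library by hours of dasatinib (horizontal axis, times drawn as categories). The title in the picture gives the numbers tested, 12 and 14. Right, the ratio of the 2 sums, which lies at 1.88 and 1.83 at 0 h and at 0.688 and 0.756 at 48 h; lines join the means of replicates.

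Among single genes KIF5B had the highest level at 0 h, 248 ± 3.81 TPM (SD, n = 2), followed by KIF20A at 174 ± 5.34, KIF11 at 159.5 ± 1.84 and KIF2C at 145.5 ± 9.01. KIF23 at 107 ± 5.7 and KIFC3 at 106 ± 5.2 lay within their spread of each other. At 48 h KIF5B was still first at 204 ± 11.1 TPM, and KIFC3 at 132 ± 5.5 and KIF1C at 69.9 ± 4.53 came next. KIF11 at 63.5 ± 6.77 and KIF20A at 62.5 ± 1.47 TPM followed, with spreads that overlapped each other and, for KIF11, that of KIF1C.

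The proteins that kinesins work with were read from lists by role. Of 22 spindle partners tested, 20 were lower at 48 h and 1 higher, with a median change of -1.29. CCNB1, the cyclin that drives entry into mitosis, and NDC80, a kinetochore coupler, fell by 1.57 and 1.55, and NUMA1, which anchors the spindle poles, rose by 0.42. CENPE, a kinetochore kinesin whose symbol lies outside the rule, was on this list and fell by 1.22 ± 0.159 at 48 h (edgeR adjusted p = 0.000284). All 13 cytokinesis partners were lower, with a median of -1.44, among them CEP55, an organiser of abscission, by 1.44, and CDCA8, the Aurora B partner borealin that KIF20A moves, by 1.60. PRC1, also on this list, was low throughout, with a mean of 1.8 CPM at 0 h and 0.498 CPM at 48 h.

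Among the 19 light chains and cargo adaptors tested, 5 were higher and 1 lower at 48 h, with a median of 0.12. MAPK8IP3, an adaptor between kinesin and lysosomes or vesicles, rose by 0.90, MAPK8IP2, a JNK scaffold that binds kinesin light chains, rose by 1.70, and RHOT2, a mitochondrial anchor of kinesin, fell by 0.45. The light chain genes KLC1 and KLC2, whose proteins sit on KIF5B, changed by 0.03 and -0.30 and did not pass the test. Of 28 genes of dynein and dynactin, the motor that walks the other way, 3 were higher and 2 lower. HOOK2, a dynein adaptor, rose by 1.46, and ACTR1B, an actin-related part of dynactin, by 0.68. SPDL1, which brings dynein to kinetochores, fell by 1.34, and the light intermediate chain gene DYNC1LI1 by 0.34. Of 15 tubulin genes, the subunits of the track itself, 8 were lower and 1 higher at 48 h, with a median of -1.13. TUBA4A and TUBA1B fell by 2.13 and 1.74, and TUBB4A, with a mean of 2.47 CPM at 48 h, rose by 0.92. Beside these counts, 16.3% of all genes were lower and 16% higher at 48 h.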

How the data were processed

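RNA of 10 libraries was sequenced as 150-base paired reads. Per the submitters' processing notes, reads were trimmed (Trim Galore), mapped to hg38 (STAR 2.5.2b) and assigned to genes (featureCounts); the table deposited by the authors holds raw counts. The gene annotation and the strand setting are not given in the sources used here, so antisense overlaps cannot be separated. The deposited TPM values are the authors' counts scaled by gene length and library, used for levels between genes.

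Counts were fitted with edgeR 4.0.16 (R 4.3.3): filterByExpr by group, TMM, robust quasi-likelihood, 1 mean for each of the 5 groups, Benjamini-Hochberg adjustment over 15727 genes, threshold 0.05. SE is the size of the log2 fold change over the square root of F. The method was tested on simulated data for 48 h against 0 h, with 50 changed genes at each size of change. That simulation held 14797 genes, not the 15727 of the main fit, so recovery in the main fit may differ. In the simulation the method recovered 6% of changes of 1.5-fold, 62% of 2-fold, 98% of 4-fold and 50% of falls to 0.5-fold, with 3 false calls. A gene that did not pass the test may therefore still have changed by such amounts. DESeq2 1.42.0 was an alternative. Promoters came from RefSeq, gene positions from GENCODE v44.

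The members and role lists were chosen with earlier results of these data known. Every library's value is given for KIF11, KIF20A, KIF23, KIF5B, KIF1B, the 3 members of each role list with the smallest adjusted p at 48 h, and members called at 6 h; of partner lists, the 2 in each direction with the smallest adjusted p. CENPE, KLC1 and KLC2 were named after their values were seen.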

Additional observations from a re-analysis of the deposited data

Results flagged for a closer look

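Levels that differed between treated times, by a direct test between the times (edgeR quasi-likelihood, adjusted p under 0.05), were found for 12 kinesin genes between 6 and 24 h and for 9 between 24 and 48 h. The log2 differences of 24 h against 6 h were 0.60 for KIF13B, -0.51 for KIF15, -1.07 for KIF18B, -0.53 for KIF1C, -1.12 for KIF21B, -0.37 for KIF23, -0.78 for KIF24, -0.49 for KIF2C, 0.70 for KIF3A, 0.47 for KIF3C, -0.40 for KIF4A and -0.73 for KIFC1. Those of 48 h against 24 h were -0.85 for KIF11, -1.10 for KIF14, -0.74 for KIF15, -0.75 for KIF18B, -1.26 for KIF20A, -0.72 for KIF23, -0.98 for KIF2C, -0.86 for KIF4A and -1.29 for KIFC1. KIF3A, part of the kinesin-2 motor of cilia and of vesicles, differed between 6 and 24 h (adjusted p = 0.00799) although the difference of neither time from 0 h passed the test. That call was lost without the second 6 h library (adjusted p = 0.0924) or the second 24 h library (adjusted p = 0.0805). KIF3A had 20 and 18.2 CPM at 6 h and 29.7 and 32.5 at 24 h, around 23.3 and 25.4 at 0 h.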

How the results depend on the processing

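Of 52 calls of single kinesin genes and comparisons, each was run under 17 alternatives, 884 values in all; 702 kept direction and side of the threshold, 182 kept direction and lost the call, and none changed sign. The 158 uncalled values gave 2673 more, of which 147 passed the threshold and 67 changed sign. The number called at 48 h against 0 h, 17, moved little, from 15 to 22. edgeR on the 2 groups alone called 9, 0, 22, 20 and 16 genes at 6, 12 and 24 h against 0 h, 24 against 6 h and 48 against 24 h, with 3 at an unadjusted p under 0.05 where it called 0. In the same order these fits called 20.5%, 0%, 43.9%, 46.4% and 25.4% of all genes. A threshold of 0.01 left 0, 1, 4 and 4 at 6 h, 12 h, 24 against 6 h and 48 against 24 h, and no filter on low counts gave 5 at 12 h. Leaving out each library in turn gave ranges of 0 to 7 (6 h), 0 to 17 (12 h), 5 to 22 (24 h) and 15 to 21 (48 h), and of 1 to 19 for 24 against 6 h and 1 to 16 for 48 against 24 h; with 1 library left in a time, its spread was taken to be that of the others. The highest count of each range came without a 12 h library, where a larger share of all genes was called too. The cause of these ranges was not tested. With the replicate number as a block the counts were 0, 3, 10, 17, 11 and 10; the numbers did not pair the samples, with correlations of -0.0368 to 0.104 between deviations of same-numbered libraries. On the gene strand alone 6 mitotic genes held a CHR and 3 a CCAAT box, and 1 transport gene held a CCAAT box. A planned search of motor domain positions was not run, as no protein sequences were used here.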
